A study of Mus musculus with 32 samples.

Results

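The regions described here are 3961 binding sites of PRDM9 in testes of RJ2 mice that carried both products of PRDM9 activity, a DMC1 signal and RJ2-specific H3K4me3, and that stood in rows 1 to 5060 of the RJ2 PRDM9 list. They were selected on measured values, since the deposited PRDM9, DMC1 and H3K4me3 lists themselves chose them, and they make up 39.1% of the 10121 RJ2 PRDM9 peaks. RJ2 is the strain B10.MOLSGR(A)-(D17Mit58-D17Jcs11)/Bdm, a C57BL/10 congenic line that carries the Prdm9 Cst allele on chromosome 17. PRDM9 was mapped by ChIP-seq in whole testes of RJ2 mice at 13 days after birth with the antibody anti-PRDM9 (BdM), raised against PRDM9Cst and purified on PRDM9Dom2, DMC1 in whole testes of RJ2 mice at 5 weeks, and H3K4me3 in elutriated pachytene cells of adult RJ2 mice. For comparison the study used C57BL/6JOlaHsd mice (B6, Prdm9 Dom2 allele) for DMC1, H3K4me3 and PRDM9, and B6 mice without Prdm9 (B6;129P2-Prdm9tm1Ymat/J) or Spo11 (Spo11tm1M) for PRDM9, at the same ages as in RJ2. Testes were pooled from several mice, H3K4me3 had 1 ChIP library per strain, and the lists give positions with neither a score nor a read count, so no value per replicate exists here and read depth was not used. Intervals given below are 95% intervals over sites, which cover counting error only.

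PRDM9 is a histone methyltransferase of meiotic germ cells whose zinc finger array reads a long DNA motif. It places H3K4me3 on the nucleosomes around its site, and SPO11 then cuts the DNA nearby, after which the single-stranded ends are coated by DMC1, the meiotic recombinase. Alleles of Prdm9 differ in their zinc fingers, so that Cst and Dom2 direct recombination to different places.

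Of the first 5060 rows, 4226 (83.5%) touched the central 400 bp of an RJ2 DMC1 interval. Of these, 183 lay under H3K4me3 common to B6 and RJ2, 82 had no H3K4me3, and the remaining 3961 (78.3% of the 5060) are the members. Over all 10121 RJ2 peaks, 63.1% carried both marks, and 2430 such hotspots stood after row 5060. These low-listed hotspots are the set with which the members are compared, because the rule separates the sets only by their place in the list.

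A PRDM9Cst motif was learned from the mm9 sequence at the midpoints of hotspots with both marks, separately on odd-numbered chromosomes (3299 hotspots) and on even-numbered chromosomes with X (3092 hotspots), and each matrix was scored only on the chromosomes it had not seen. Both searches began from the same word, GGAATGTGAC, which stood in 56 and 49 of the central windows but in only 1 of 6598 and 0 of 6184 windows 1 kb away. Both ended on a 20-base matrix. The consensus was TGNCTTGGNCTNTGNCTNTT from odd-numbered chromosomes and TGNCTTGGNCTGTGNCTNTT from the others, with N where no base reached 50%. A hit is a position that scores above the value passed by 5% of flanking windows of the same length (10.3 bits for 200 bp). It describes the sequence and is not by itself a binding site.

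The best hit within 500 bp of the midpoint is printed here for the first 10 members in the list, to show how the sequence under the highest-listed sites varies around the consensus. The 20 bases in capitals are the hit, written on the strand on which they match, with 15 bases on each side, and the coordinates (mm9) span the printed bases.
row 1, chr2:164587218-164587267, plus strand: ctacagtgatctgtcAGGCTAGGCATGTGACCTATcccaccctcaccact
row 2, chr19:43230929-43230978, plus strand: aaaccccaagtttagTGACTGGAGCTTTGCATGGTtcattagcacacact
row 3, chr6:117549530-117549579, plus strand: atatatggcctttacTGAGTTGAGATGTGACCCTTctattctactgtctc
row 4, chr11:33623364-33623413, plus strand: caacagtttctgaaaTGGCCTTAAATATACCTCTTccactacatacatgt
row 5, chr16:84183944-84183993, minus strand: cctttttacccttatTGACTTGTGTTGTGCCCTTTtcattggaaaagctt
row 6, chr5:144360971-144361020, plus strand: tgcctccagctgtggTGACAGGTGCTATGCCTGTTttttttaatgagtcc
row 7, chr11:52814209-52814258, minus strand: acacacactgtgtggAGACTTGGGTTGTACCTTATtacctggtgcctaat
row 8, chr19:58439296-58439345, plus strand: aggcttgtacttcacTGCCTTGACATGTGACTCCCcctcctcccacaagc
row 9, chr1:136965687-136965736, minus strand: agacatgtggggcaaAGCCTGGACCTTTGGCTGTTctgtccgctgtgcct
row 10, chr2:112383095-112383144, plus strand: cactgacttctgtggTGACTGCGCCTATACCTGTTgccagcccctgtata

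All 10 sites had at least 1 hit inside the PRDM9 interval, but only those of rows 2, 3, 5 and 7 had one in the central 200 bp. Within 500 bp of the midpoint, the best scores ran from 11.3 bits at row 4 to 19.4 bits at row 5, and row 5 alone held 3 hits. In row 1 the best hit, of 18.9 bits, lay 128 bp from the midpoint of the interval. The central 300 bp of that site are printed to show this displacement, with the hit in capitals near the left end.
row 1, chr2:164587221-164587520, plus strand: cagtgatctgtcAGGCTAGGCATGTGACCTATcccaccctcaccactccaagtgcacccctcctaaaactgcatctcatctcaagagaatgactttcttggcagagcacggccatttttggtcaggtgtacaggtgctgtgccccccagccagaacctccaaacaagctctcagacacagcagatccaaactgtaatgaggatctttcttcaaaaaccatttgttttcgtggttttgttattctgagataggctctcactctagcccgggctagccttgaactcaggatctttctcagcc

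The members with the highest scores in the central 200 bp show how close a site in that window came to the consensus. In the central 1000 bp, scores of members reached 26.3 bits. Of the 5 highest in the central 200 bp, 4 are printed.
row 238, in an intron of Pdzrn4, chr15:92401936-92401985, minus strand, 24.98 bits: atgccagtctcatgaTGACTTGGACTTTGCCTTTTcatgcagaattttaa
row 349, in an intron of B4galt1, chr4:40759191-40759240, plus strand, 24.7 bits: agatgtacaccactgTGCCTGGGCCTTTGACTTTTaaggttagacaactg
row 2676, between genes, chr2:143008997-143009046, plus strand, 24.1 bits: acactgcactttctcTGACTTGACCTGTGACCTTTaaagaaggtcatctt
row 525, in an intron of Grm3, chr5:9507544-9507593, minus strand, 23.7 bits: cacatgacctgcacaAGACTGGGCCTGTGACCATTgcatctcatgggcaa
Among them row 2676 had a PRDM9 interval of only 630 bp, whereas the intervals of rows 238 and 349 spanned 1358 and 1360 bp.

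The widths of the intervals fell along the list, and this is a description, because the list chose the members. PRDM9 intervals of members had a median of 713 bp (quartiles 570 and 912 bp, range 290 to 5811 bp), against 451 bp (quartiles 385 and 544 bp) in low-listed hotspots. Over all RJ2 peaks the median PRDM9 width was 552 bp (quartiles 435 and 741 bp). Intervals over 1 kb occurred in 703 members (17.7%) and in 8 low-listed hotspots (0.329%). The DMC1 interval at the site had a median of 1846 bp in members and 1706 bp in low-listed hotspots. The RJ2-specific H3K4me3 interval had a median of 1560 bp in members and 1148 bp in low-listed hotspots. The called H3K4me3 intervals thus differed more in width than the called DMC1 intervals. The authors called these lists with different settings, whose part in the widths was not tested. With the list cut into 10 equal bins, the share of peaks that carried both marks was 90.7% in the first bin, 64.7% in the fifth and 34.4% in the last.

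**Figure D1:**
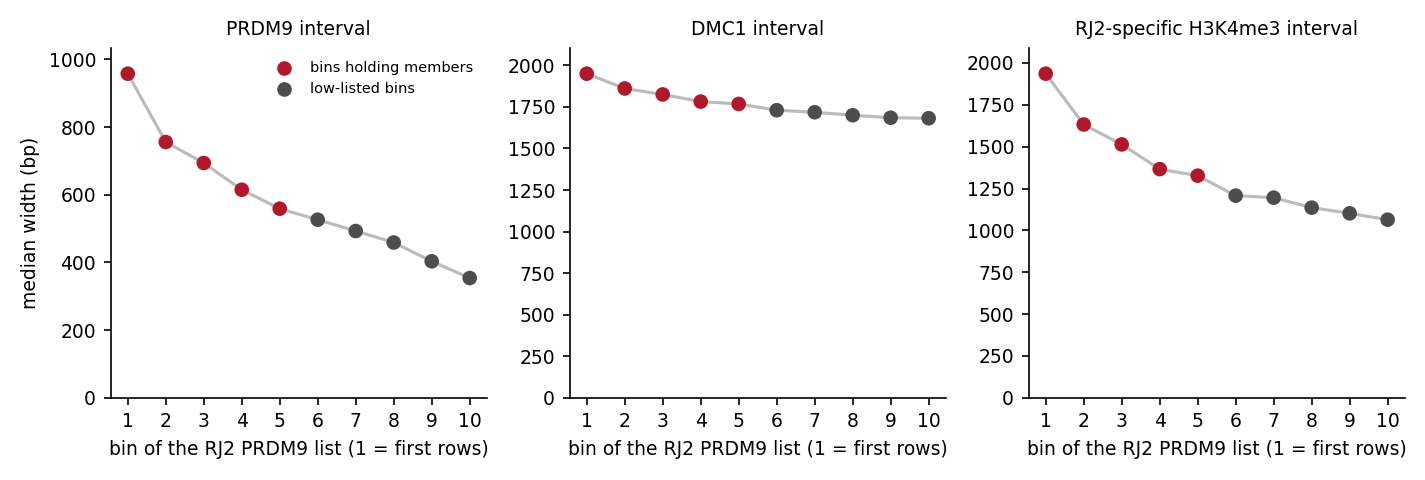
Median width in bp (y axes, from 0) of the PRDM9, DMC1 and RJ2-specific H3K4me3 intervals of hotspots with both marks, by bin of the RJ2 PRDM9 list (x axes, 10 equal bins). Red points are bins that hold members and grey points low-listed bins (the fifth bin includes row 5061, which is low-listed). The PRDM9 median was 958 bp in the first bin and 354 bp in the last, the H3K4me3 median 1936 and 1064 bp, and the DMC1 median 1950 and 1682 bp.

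Across the 3961 members the widths of the marks were related only in part. Spearman's rho was 0.34 between PRDM9 and H3K4me3 widths, 0.41 between DMC1 and H3K4me3 widths and 0.16 between PRDM9 and DMC1 widths. These values are over sites of the same pooled libraries, and are given without a test. The widest member, row 33 at chr17:27511567-27517377, spanned 5811 bp, but all RJ2-specific H3K4me3 together covered only 48.3% of it. The H3K4me3 interval with the largest overlap spanned 2052 bp, and the DMC1 interval 1924 bp. Conversely, the widest DMC1 interval of any member, 4512 bp, lay at row 234 (chr18:61382082-61384097, in an intron of Pde6a), and the widest H3K4me3 interval, 3985 bp, at row 138 (chr6:86139963-86141497, near Tgfa).

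The rule forced each member to touch a DMC1 centre and RJ2-specific H3K4me3, and the overlap of the marks is described here without a test. In 3495 members (88.2%) the PRDM9 interval lay wholly inside 1 RJ2-specific H3K4me3 interval, and in 3875 (97.8%) it contained the midpoint of the DMC1 interval. The PRDM9 and DMC1 midpoints lay a median of 91 bp apart in members (quartiles 43 and 158 bp) and 81 bp apart in low-listed hotspots. The least H3K4me3 coverage among members was 22.1% at row 1752 (chr2:170252536-170253624, in an intron of Bcas1), well above the 10% limit of the rule, and a limit of 1 bp would have given the same count of 3961. Few sites shared an interval. The 3961 members lay in 3958 DMC1 intervals, 3 of which held 2 members each, and 6 H3K4me3 intervals held 2 members each.

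At the list limit, the PRDM9 and H3K4me3 widths of members and of the next hotspots overlapped. The DMC1 intervals of the last 3 members were narrower than those of the next 3 hotspots, but these are few sites. By bins of the list, the median DMC1 width was 1768 bp in the fifth bin and 1730 bp in the sixth. The last 3 members, rows 5057 to 5059, had PRDM9 intervals of 718, 538 and 512 bp, DMC1 intervals of 1598, 1718 and 1566 bp and H3K4me3 intervals of 1312, 1070 and 1400 bp. The first 3 hotspots past the limit, rows 5061, 5063 and 5064, had PRDM9 intervals of 504, 446 and 572 bp, DMC1 intervals of 1728, 1720 and 1750 bp and H3K4me3 intervals of 1248, 1161 and 1284 bp. The best hits of the 3 last members scored 13.1, 18.3 and 15.04 bits, and those of the next 3 hotspots 13.02, 13.7 and 14.5 bits. They are printed for all of these but row 5061, to show the sequences on both sides of the limit.
row 5057, chr4:125563020-125563069, minus strand: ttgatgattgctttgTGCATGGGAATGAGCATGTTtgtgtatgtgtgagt
row 5058, chr13:30675709-30675758, plus strand: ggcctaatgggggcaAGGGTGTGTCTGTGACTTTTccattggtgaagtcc
row 5059, chr5:54758556-54758605, minus strand: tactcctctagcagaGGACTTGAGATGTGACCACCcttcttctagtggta
row 5063, chr9:49429357-49429406, minus strand: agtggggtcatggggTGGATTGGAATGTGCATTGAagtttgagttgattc
row 5064, chr12:5256998-5257047, plus strand: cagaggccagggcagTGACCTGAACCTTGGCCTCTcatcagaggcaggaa

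Whether the members carried the motif more often depended on where it was searched. In the central 200 bp of the PRDM9 interval, 2478 of 3961 members (62.6%, interval 61.0 to 64.1%) had a hit, against 1712 of 2430 low-listed hotspots (70.5%, interval 68.6 to 72.3%). The share was 49.1% over all RJ2 peaks and 7.80% in the 2449 RJ2 peaks with no mark. The difference between members and low-listed hotspots was -7.89 percentage points (Newcombe interval -10.2 to -5.52), a lower share in members. The windows of 600 and 1000 bp were chosen after seeing the data. In the central 600 bp, with the threshold reset on flanks of that length, the direction turned. There 3064 members (77.4%) and 1669 low-listed hotspots (68.7%) had a hit, against 54.9% of all RJ2 peaks, a difference of 8.67 points (interval 6.42 to 10.9). In the central 1000 bp the shares were 72.9% in members and 60.3% in low-listed hotspots, a difference of 12.6 points (interval 10.2 to 14.99), against 50.4% of all RJ2 peaks. Flanking windows of 1000 bp passed the same threshold at 5.36% around members and 4.42% around low-listed hotspots.

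The motif lay farther from the PRDM9 midpoint in members. Among hits in the central 600 bp its distance from the midpoint had a median of 57.5 bp in members (quartiles 23 and 115.5 bp) and 36 bp in low-listed hotspots (quartiles 16 and 75.5 bp), and by bins of the list this median was 71.5 bp in the first bin and 26.5 bp in the last. From the DMC1 midpoint the same motifs lay a median of 66 bp in members and 65 bp in low-listed hotspots. Searched in the 200 bp around the DMC1 midpoint, the motif was found in 2433 members (61.4%) and 1379 low-listed hotspots (56.7%), a difference of 4.67 points (interval 2.19 to 7.16), with members higher. This window was also chosen after seeing the data, and its share over all RJ2 peaks is not given. The part of interval width in these differences was not tested.

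**Figure D2:**
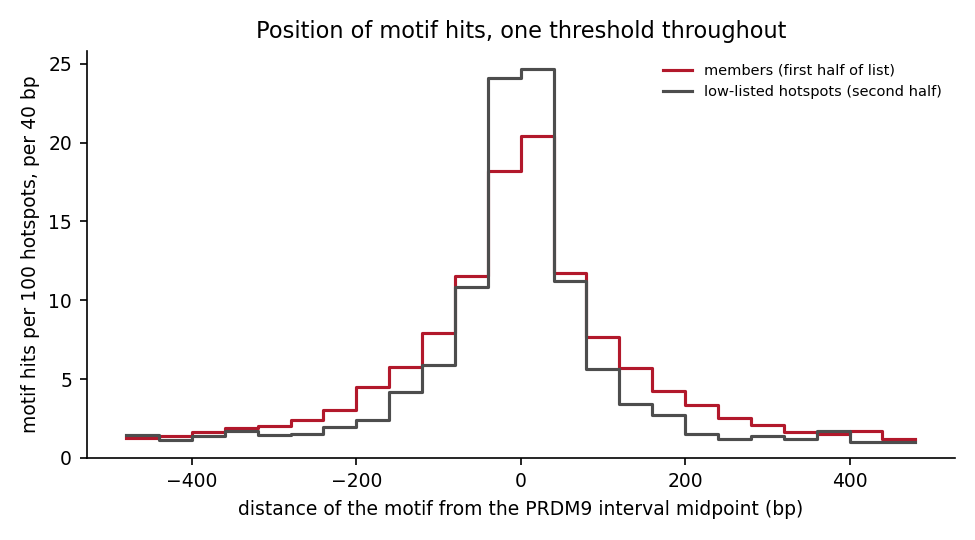
Motif hits per 100 hotspots in bins of 40 bp (y axis) by distance from the midpoint of the PRDM9 interval in bp (x axis), in members (red) and low-listed hotspots (grey), with the 200 bp threshold throughout. Low-listed hotspots peak higher at the midpoint, and members keep more hits between 100 and 300 bp from it.

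In the central 1000 bp, a window chosen after seeing the data, the members' motifs scored higher, whereas in the central 200 bp they scored lower. The best score in the central 1000 bp averaged 15.8 ± 3.499 bits in members and 14.5 ± 3.43 bits in low-listed hotspots (SD over sites), a difference of 1.27 bits (interval 1.10 to 1.45). Over all RJ2 peaks the best score in this window averaged 13.5 bits, with an upper quartile of 16.9 bits. A score over 16 bits was reached in 1984 members (50.1%), 863 low-listed hotspots (35.5%) and 2.69% of RJ2 peaks with no mark. A score over 20 bits was reached in 428 members (10.8%), 108 low-listed hotspots (4.44%) and 0.449% of RJ2 peaks with no mark. Members and low-listed hotspots differed here by 6.36 points (interval 5.07 to 7.61). In the central 200 bp alone, the mean best score was lower in members, at 11.9 bits, than in low-listed hotspots, at 12.5 bits, by -0.63 bits (interval -0.92 to -0.35). Within the members the best score in the central 1000 bp had a Spearman's rho of -0.23 with the row in the list and of 0.11, 0.11 and 0.13 with the PRDM9, DMC1 and H3K4me3 widths, given as a description over 3961 sites.

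**Figure D3:**
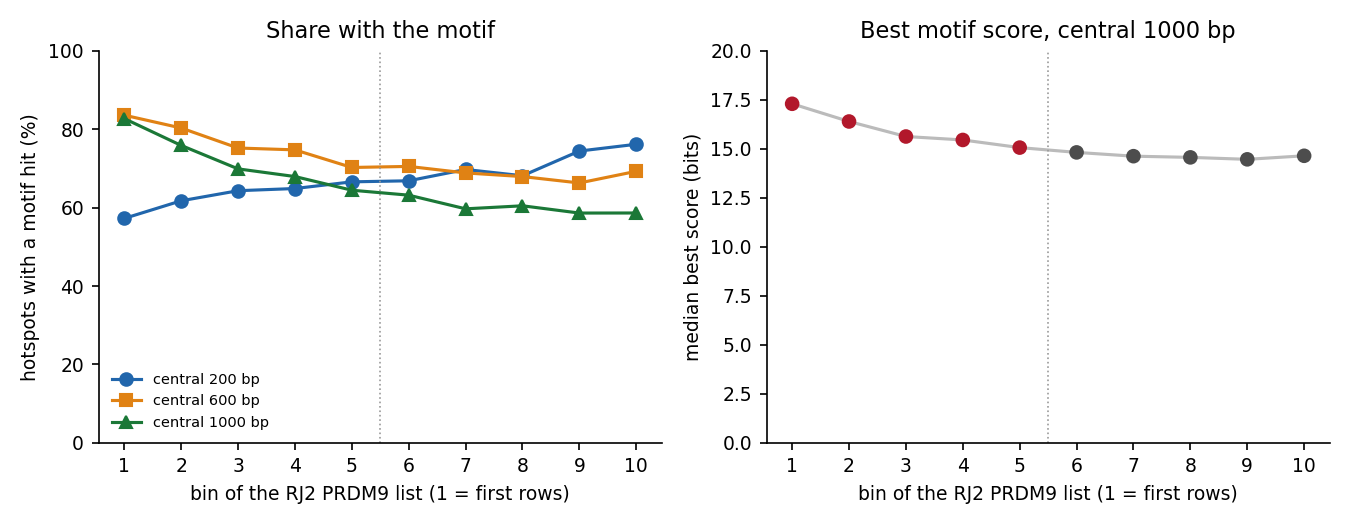
Left, the share of hotspots with both marks that had a motif hit (%) in the central 200, 600 and 1000 bp, by bin of the RJ2 PRDM9 list (10 equal bins). Right, the median best score in bits in the central 1000 bp, with bins holding members in red and low-listed bins in grey. Along the list, first bin and last, the share in 200 bp was 57.2% and 76.1%, the share in 1000 bp 82.7% and 58.6%, and the median score 17.3 and 14.6 bits.

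Hits inside the PRDM9 interval were searched within 500 bp of its midpoint, so the ends of intervals over 1 kb (703 members and 8 low-listed hotspots) were not searched. In the searched part, with the 200 bp threshold, 3652 members (92.2%) and 2078 low-listed hotspots (85.5%) had at least 1 hit, against 19.4% of RJ2 peaks with no mark. More than 1 hit was found in 818 members (20.7%), 299 low-listed hotspots (12.3%) and 2.33% of RJ2 peaks with no mark. The members' intervals, however, were wider and gave more room for hits. Within a fixed 1000 bp more than 1 hit was found in 1015 members (25.6%), 532 low-listed hotspots (21.9%) and 5.51% of RJ2 peaks with no mark. Members and low-listed hotspots differed here by 3.73 points (interval 1.58 to 5.85). For these hit counts the share over all RJ2 peaks is not given. In the central 200 bp, 49.1% of all RJ2 peaks had a hit, against 7.80% of those with no mark. The 309 members with no hit in the searched part of the interval stood lower in the list. Their median row was 2908, against 2197.5 for members with a hit. Their H3K4me3 intervals were slightly narrower, with medians of 1461 and 1566 bp. Their mean GC content was 44.8%, as in members with a hit (44.8%).

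The sites were nearly all different sequences. The 2478 hits of members in the central 200 bp held 2455 distinct 20-base sequences, of which the most frequent occurred 8 times, and 48.9% of hits were on the plus strand. Counted from 1 at the 5′ end of the matrix, G at position 2 was present in 95.8% of members' sites and 94.1% of low-listed sites, and T at position 13 in 96.8% and 94.98%. The adjoining G at position 14 stood in 88.9% and 88.0%, and T at position 11 in 87.7% and 87.6%. By contrast, T at position 6, C at position 10 and G at position 12 stood in 54.1%, 54.8% and 50.5% of members' sites. The matrix chose the hits, so these shares describe the sites and are not a test.

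With each site turned so that the motif reads 5′ to 3′, the reach of the marks on its sides differed slightly. The PRDM9 interval of members reached 352 bp upstream and 351 bp downstream of the motif on average, a difference of 0.91 bp (interval -2.65 to 4.47, 2478 sites). The DMC1 interval reached 944 bp upstream and 919 bp downstream, 25.5 bp farther upstream (interval 16.997 to 34.1), and was longer upstream in 1395 of 2478 members (56.3%). The H3K4me3 interval reached 15.7 bp farther upstream (interval 4.16 to 27.3, 2456 sites), and was longer upstream in 1303 members (53.1%). In low-listed hotspots the DMC1 interval reached 14.8 bp farther upstream (interval 4.87 to 24.8) and the H3K4me3 interval 30.2 bp (interval 17.7 to 42.7). The difference between members and low-listed hotspots had an interval that included 0, at 10.7 bp for DMC1 (interval -2.40 to 23.8) and at -14.5 bp for H3K4me3 (interval -31.5 to 2.57).

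**Figure D4:**
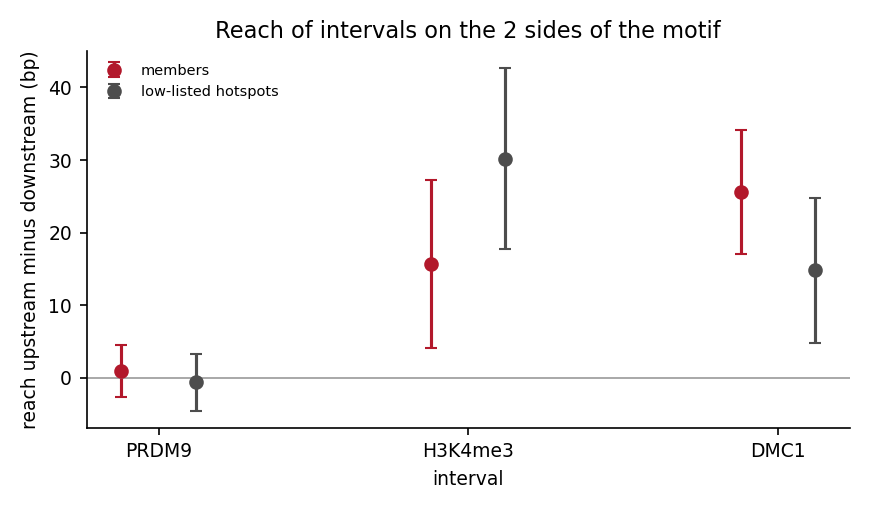
Reach of each interval upstream of the motif minus its reach downstream, in bp (y axis), for PRDM9, H3K4me3 and DMC1 intervals (x axis). Points are means over sites with a hit in the central 200 bp, bars are 95% intervals, red is members and grey low-listed hotspots. The PRDM9 bars include 0, and the DMC1 and H3K4me3 bars of both sets lie above it.

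Most members lay far from gene starts. Within 1 kb of an annotated transcription start lay 175 members (4.42%, interval 3.80 to 5.11%) and 86 low-listed hotspots (3.54%), against 9.82% of all RJ2 peaks and 13.1% of peaks with no mark. The difference of 0.88 points between members and low-listed hotspots had an interval from -0.13 to 1.83. Sites under common H3K4me3 had been left out by the rule in both sets. The paper places most of the common H3K4me3 peaks, but not all, at annotated transcription starts or enhancers of testis. The midpoint lay in a gene in 2069 members (52.2%) and 1282 low-listed hotspots (52.8%), near the 54.7% of all RJ2 peaks, and in an exon in 188 members (4.75%) and 103 low-listed hotspots (4.24%), against 5.85% of all RJ2 peaks. The median distance to a transcription start was 24.3 kb in members and 23.7 kb in low-listed hotspots. The mean GC content of the central 200 bp was 44.8% ± 6.64 in members and 44.6% ± 6.37 in low-listed hotspots (SD over sites), against 50.02% in peaks with no mark.

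Some of the highest-listed members nevertheless stood at gene starts. Of the first 10 members within 1 kb of the start of a protein-coding gene, 8 are described, at rows 11 (Tead1), 59 (Sgk2), 93 (Myt1), 114 (Akd1), 131 (Bmp10), 186 (Kcnj15), 247 (Tada3) and 318 (Cdhr2). Their midpoints lay between 18 bp (Cdhr2, a protocadherin) and 701 bp (Sgk2, a protein kinase) from a start, all in an intron except that of Cdhr2, in an exon. The strongest motif among them, of 22.5 bits, was at Akd1 (chr10:41035677-41036760). At Tead1, a transcription factor of the Hippo pathway (chr7:119903040-119904311), the best hit scored 18.3 bits. At Bmp10, a ligand of the TGF-beta family, the PRDM9 interval was only 593 bp (chr6:87379096-87379688) within a DMC1 interval of 3694 bp, and its motif scored 20.4 bits.

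Of the first 10 members in the list, row 1 (chr2:164586767-164587974) was centred in an exon of Dnttip1, which encodes a subunit of a histone deacetylase complex, 212 bp from an annotated start of a 7SK RNA copy. Rows 2, 4, 7, 8, 9 and 10 were centred in introns of Hpse2, Kcnip1, Fstl4, Gfra1 (the receptor subunit for GDNF), Lgr6 and Aven, and rows 3, 5 and 6 lay between genes. Row 4 in Kcnip1 (chr11:33622022-33624505) had the widest intervals of the 10, at 2484 bp for PRDM9, 3186 bp for DMC1 and 3288 bp for H3K4me3, and the lowest best score, 11.3 bits.

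Genes of meiotic recombination held a member at about the share of all protein-coding genes. Of 52 genes matched from a list of 55, 4 (7.69%) held a member in their body or within 1 kb of a start, against 7.42% of 22350 protein-coding genes. Over all 37252 annotated genes the share was 10.5%. The matched genes had a median length of 35.7 kb, against 15.4 kb for all protein-coding genes. All 4 members lay in introns. Row 757 was in Tex15, a gene needed for male meiosis (chr8:34642295-34642984), row 2756 in Hsf2bp, whose product binds BRCA2 (chr17:32163657-32164615), row 3076 in Hormad2, a protein of the chromosome axis (chr11:4307922-4308455), and row 4013 in Mlh3, a subunit of the endonuclease that forms crossovers (chr12:86587855-86588741).

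Members were spread over every chromosome, with a median of 183 kb to the nearest other member (quartiles 70.9 and 394 kb), and 58 members (1.46%) had another within 5 kb. Their density was highest on chromosome 11, with 238 members or 1.95 per Mb, and lowest on X, with 56 members or 0.336 per Mb, while the lowest autosome was chromosome 3, with 1.15 per Mb. On chromosome 17, which carries the congenic segment, 133 members gave 1.40 per Mb. The X chromosome held 1.41% of members and 2.43% of low-listed hotspots, a difference of -1.01 points (interval -1.78 to -0.33), while 1.56% of all RJ2 peaks lay on X, close to the share of members. Members were 35.4% of the RJ2 PRDM9 peaks on X and 31.5 to 47.1% of those on the autosomes. For each 100 RJ2 DMC1 intervals there were 6.13 members on X and 20.8 to 30.5 on the autosomes.

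**Figure D5:**
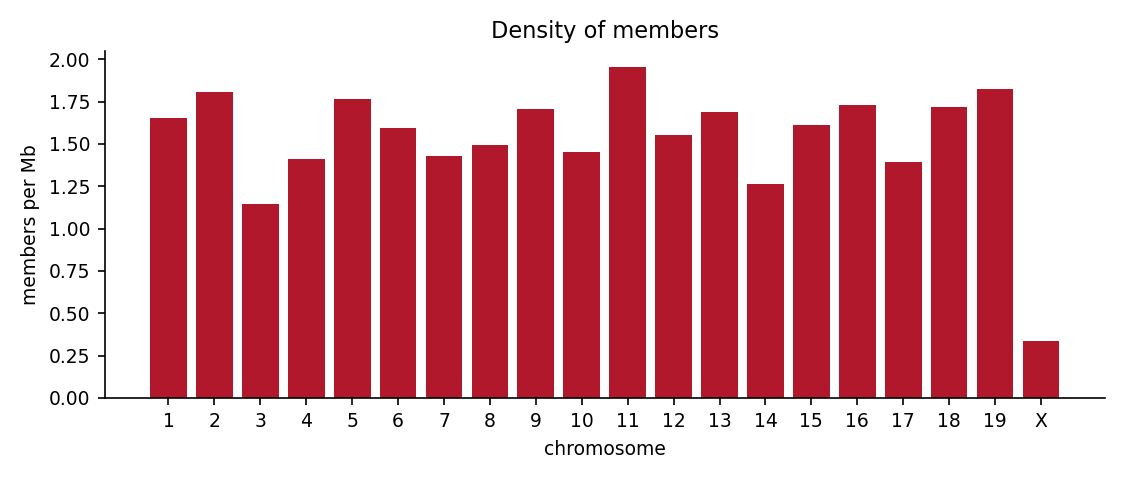
Members per Mb (y axis, from 0) on each chromosome (x axis), 1 bar per chromosome. Autosomes lie between 1.15 per Mb on chromosome 3 and 1.95 per Mb on chromosome 11, and X is at 0.336 per Mb.

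Few members overlapped sites mapped with the other Prdm9 allele or without PRDM9. A B6 DMC1 interval overlapped 40 members (1.01%, interval 0.722 to 1.37%) and 28 low-listed hotspots (1.15%), against 1.54% of all RJ2 peaks, a difference of -0.14 points (interval -0.72 to 0.36). No member and no low-listed hotspot overlapped a B6-specific H3K4me3 interval (0 of 3961 members), against 0.237% of all RJ2 peaks. Likewise 0 members and 0 low-listed hotspots overlapped a PRDM9 peak of Spo11-deficient B6 testes, against 0.247% of all RJ2 peaks. The rule asks for RJ2-specific H3K4me3, and 3495 members (88.2%) lay wholly inside 1 such interval. The 0 for B6-specific H3K4me3 was therefore largely fixed in advance and is not an estimate. The rule and the authors' removal of PRDM9 peaks shared between the strains bear on the other counts too.

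A peak of Prdm9-deficient B6 testes overlapped 11 members (0.278%, interval 0.139 to 0.496%) and 1 low-listed hotspot (0.0412%), against 2.49% of all RJ2 peaks and 8.17% of those with no mark. The difference of 0.24 points (interval 0.0091 to 0.46) rests on these few sites. The study's methods describe the removal of RJ2 peaks over such knockout peaks, so the overlaps here are those that the deposited list still holds. The 11 members were rows 42 (in Pax5), 778 (in Ryr2), 1411, 1483 (in Trp63), 2066, 2373, 2439, 3933, 4209 (in 9530036O11Rik), 4843 and 4911. Of them, 9 had a motif hit inside the interval and within 500 bp of its midpoint, with the strongest, of 23.3 bits, at row 2373 (chr4:64101846-64103185). The other 2 were row 2439 (chr6:72193189-72194379), where the best score was 9.54 bits and H3K4me3 covered 30.8% of the PRDM9 interval, and row 4911 (chr4:39038272-39039126), where it was 10.3 bits.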

How the data were processed

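Per the labels and the study's methods, reads were aligned to mm9 with Bowtie2 (PRDM9), Bowtie (H3K4me3) or a modified BWA for single-stranded DNA (DMC1), and the authors called peaks with MACS, kept PRDM9 and DMC1 peaks reproducible between replicates, intersected H3K4me3 peaks called from several read sets, and removed PRDM9 peaks found in both strains. Removal of PRDM9 peaks over Prdm9 knockout peaks is also described, yet the deposited RJ2 list holds 252 of them. CASAVA and MACS2 are also named in the submitters' processing notes. The 9 deposited lists hold peak positions only, pooled over replicates, with no score or count, so depth gives no interval here. The methods rank peaks by p-value to choose the final sets, but whether the rows of the deposited list keep that rank is not given in the sources used here.

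Members were taken by the rule: rows 1 to 5060, 1 bp on the central 400 bp of a DMC1 interval, and at least 10% of the interval under RJ2-specific H3K4me3 with less than 10% under common H3K4me3. The members, lists and tests were chosen with earlier results of these data known. Named sites are the first 10 members, 3 on each side of the list limit, the widest of each mark, the 5 highest motif scores, those over a Prdm9 knockout peak, those at listed meiosis genes, the first 10 at protein-coding starts, and the extreme chromosomes. Of the named sites, 2 at protein-coding starts are not reported here. Annotation is GENCODE vM1 on the mm9 assembly. Shares have Clopper-Pearson intervals, differences of shares Newcombe intervals and differences of means intervals from the standard errors, and a difference was called where its interval left out 0. Sites, not mice, are the units. Motif thresholds for 200 bp windows used flanks 1 kb away and those for 600 and 1000 bp flanks 2 kb away. Alternatives changed the overlap rules, the list limits, the motif threshold, matrix and window, the promoter distance, the gene set, the GC window and the chromosomes and peaks kept. The procedure was tested on simulated data. Python 3.11.15, numpy 2.4.6, pandas 2.3.3, scipy 1.17.1 and matplotlib 3.10.9 were used. H3K36me3 libraries were not used here.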

Additional observations from a re-analysis of the deposited data

How the results depend on the processing

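The difference in motif share between members and low-listed hotspots depended on the window. It was -7.89 points in the central 200 bp of the PRDM9 interval, 2.11 points in 400 bp (interval -0.06 to 4.31, which included 0), and, in windows chosen after seeing the data, 8.67 points in 600 bp, 12.6 points in 1000 bp and 4.67 points around the DMC1 midpoint. The mean best score turned likewise, at -0.63 bits in 200 bp, 0.54 bits in 400 bp, 1.15 bits in 600 bp, 1.27 bits in 1000 bp and 1.0009 bits around the DMC1 midpoint. At a threshold that 1% of flanking windows pass, the share differed by -2.39 points (interval -4.90 to 0.14), and a search for the seed word with at most 1 mismatch gave 0.10 points, with 8.33% of members and 8.23% of low-listed hotspots. The share at transcription starts differed by 0.80 points within 500 bp, an interval that left out 0, and mean GC content by 0.45 points in 400 bp. The difference in knockout overlaps no longer left out 0 between the top 25% and the bottom 25% of the list (0.32 points), with H3K4me3 over at least 50% of the interval (0.21 points) or with the DMC1 midpoint inside it (0.19 points). The rule limited to the top 25% of the list gave 2209 members. The causes were not tested. In the other 59 of 75 alternatives the count stayed within 1.5 times, or the interval stayed on the same side of 0 or included 0 as before.

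No paired analysis was possible because the lists pool the replicates, and for the same reason no replicate was left out. Repeat content was not run, because the genome sequence used here does not mark repeats. The lists give positions only, and no signal strength at a site was measured.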
